A study of Mus musculus with 6 samples.

Results

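The class II myosin heavy chains were examined in cultured muscle satellite cells (MuSCs), the stem cells of skeletal muscle. They were chosen by gene symbol, as 10 genes that encode the heavy chains of sarcomeric, smooth muscle and non-muscle myosin II. Of these 10 symbols, 8 were analysed here, among 20654 genes in the count table: the sarcomeric chains *Myh3*, *Myh1*, *Myh8* and *Myh4*, the non-muscle chains *Myh9*, *Myh10* and *Myh14*, and the smooth muscle chain *Myh11*. *Myh2* and *Myh7* were not analysed here.

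RNA-seq covered 6 libraries, 3 from control MuSCs and 3 from *Piezo1* cKO MuSCs, and counted unique molecular identifiers (UMIs), tags that mark single cDNA molecules primed at the poly(A) tail. *Piezo1* encodes a mechanosensitive ion channel, and the series compared MuSCs with and without it after 3 d of culture. The labels call the controls wild type and give a C57BL/6 background for both groups. The cKO mice were *Piezo1* flox/flox; *Pax7*CreERT2/+, and the paper names *Pax7*CreERT2/+ mice as the comparison in 1 analysis of these libraries and otherwise calls them control. The *Piezo1* alleles of the controls are not spelled out for the RNA-seq. Tamoxifen was injected into the mice, both groups had 1 µM 4-OH TMX (the active metabolite) in the growth medium, and the MuSCs were sorted as VCAM1+ Sca1- CD31- CD45- cells. Because CreERT2 is expressed from *Pax7*, deletion is limited to cells that expressed *Pax7* when tamoxifen was given, and cells of the culture that escaped it stay in the RNA. The 3 control libraries held 740936, 931168 and 891531 counts. The 3 others, called cKO-labelled libraries here, held 810096, 726378 and 769295. Levels are given as CPM (counts scaled to a common library size, by the TMM method), on which 3 counts, taken as the floor, equal 3.27 to 4.21 CPM depending on the library. Floors, and intervals given as exact, cover counting error and nothing else, whereas intervals of fold changes from edgeR also carry the spread between libraries. The labels do not say that the libraries of a group came from separate mice, so p-values measure the spread between these samples.

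Myosin II is a hexamer of heavy chains, whose heads hydrolyse ATP and pull on actin, and of pairs of essential and regulatory light chains. In skeletal muscle the sarcomeric heavy chains build the thick filament, and a developing or regenerating myofibre first makes embryonic and neonatal forms and later fast or slow adult forms. Undifferentiated myoblasts depend on non-muscle myosin II, which drives cortical tension, migration and cell division and is switched on by phosphorylation of its regulatory light chain downstream of RhoA and its kinases.

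The sequences around the RefSeq start sites (GRCm38.p6) are shown for the 4 heavy chains that yielded most of the counts, to set 2 sarcomeric beside 2 non-muscle starts. Each runs 5′ to 3′ on the strand of the gene from 250 bases before the start site to 50 bases after it. Capitals mark matches on either strand to the E-box CANNTG (bound by MyoD-family factors among others), to the TATA box TATAAA, to the CArG box of serum response factor and to the MEF2 site, the latter pair searched by their consensus and given by name. *Myh3* lies at chr11:67078050-67078349 (plus strand), *Myh1* at chr11:67199852-67200151 (plus strand), *Myh9* at chr15:77842126-77842425 (minus strand) and *Myh10* at chr11:68691665-68691964 (plus strand).
Myh3: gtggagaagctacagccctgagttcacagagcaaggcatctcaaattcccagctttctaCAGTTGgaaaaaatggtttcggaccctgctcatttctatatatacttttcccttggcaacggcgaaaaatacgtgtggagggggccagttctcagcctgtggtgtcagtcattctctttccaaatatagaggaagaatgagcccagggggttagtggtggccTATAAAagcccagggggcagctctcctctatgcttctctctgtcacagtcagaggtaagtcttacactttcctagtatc
Myh1: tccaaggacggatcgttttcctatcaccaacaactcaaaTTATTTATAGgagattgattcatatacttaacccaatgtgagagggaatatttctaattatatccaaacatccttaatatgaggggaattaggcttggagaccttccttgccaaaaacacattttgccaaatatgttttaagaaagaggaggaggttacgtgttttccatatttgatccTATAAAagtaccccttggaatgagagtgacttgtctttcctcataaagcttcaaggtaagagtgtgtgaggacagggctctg
Myh9: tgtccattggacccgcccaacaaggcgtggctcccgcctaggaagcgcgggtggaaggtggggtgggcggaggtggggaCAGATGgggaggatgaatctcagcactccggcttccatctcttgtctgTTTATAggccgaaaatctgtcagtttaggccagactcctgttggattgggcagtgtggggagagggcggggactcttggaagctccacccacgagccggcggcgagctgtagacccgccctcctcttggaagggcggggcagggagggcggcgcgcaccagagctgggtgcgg
Myh10: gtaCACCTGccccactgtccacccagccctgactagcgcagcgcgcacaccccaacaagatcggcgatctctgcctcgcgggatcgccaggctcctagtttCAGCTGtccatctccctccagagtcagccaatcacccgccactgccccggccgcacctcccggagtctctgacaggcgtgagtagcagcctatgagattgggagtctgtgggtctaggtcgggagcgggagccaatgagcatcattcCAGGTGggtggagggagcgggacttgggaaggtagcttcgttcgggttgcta

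The *Myh3* window held TATAAA at -29 and 1 E-box at -191, counting the first base of a match from the start site. The *Myh1* window held TATAAA at -32 and a MEF2 site at -211, which overlaps the second TATAAA match at -208 on the other strand, and no CANNTG. Neither *Myh9* nor *Myh10* had TATAAA in that place: *Myh9* had a match at -123 on the other strand and an E-box at -171, and *Myh10* had E-boxes at -247, -149 and -2, of which the second reads CAGCTG. These windows were 48.0% (*Myh3*), 38.0% (*Myh1*), 64.7% (*Myh9*) and 62.7% (*Myh10*) G and C. The position of this TATA box in *Myh3* and *Myh1* was shared by *Myh4*, which had matches at -213, -179 and -31. That position was not shared by all sarcomeric chains. *Myh8* had a match at -96 on the other strand, which overlaps its MEF2 site at -99, and *Myh7* had none. *Myh2* had TATAAA on its own strand at 11, after the RefSeq start site. Positions depend on the start site used, and whether the *Myh2* match corresponds to that of *Myh1* was not tested. Among all 32544 promoters in the RefSeq table, CANNTG occurred in 72.3%, CAGCTG in 16.4%, TATAAA in 13.6%, the CArG box in 1.64% and the MEF2 site in 3.16%. A match is a description of the letters and not a site of binding.

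*Piezo1*, the targeted gene, had counts of 11, 5 and 6 in control and 7, 12 and 9 in the cKO-labelled libraries. These were 9.26 ± 5.38 CPM and 11.9 ± 3.36 CPM (SD, n = 3 each), the groups overlapped, and a two-sided exact permutation test gave p = 0.6, where 3 libraries against 3 allow none under 0.1. The pooled counts of 22 and 28 give a rate ratio of 1.42 (exact 95% interval 0.781 to 2.60). The estimate for *Piezo1* was thus not lower in the cKO-labelled libraries, but its interval includes lower levels as well as higher ones. Counts primed at the poly(A) tail come from the end of the transcript, and whether they cover the floxed exons was not tested, so they neither check nor contradict the labels. The muscle origin of the cells could be checked: all 11 listed MuSC and myoblast markers were in the table, 9 were tested and *Myod1*, *Des*, *Itga7* and *Sdc4*, the 4 with the highest CPM, had 113 counts or more in every library. Of those 9 genes, 0 were called by edgeR, DESeq2 or limma-voom, and 4 had an unadjusted p under 0.05 in edgeR, as did 11.9% of all 8551 genes tested. DESeq2 gives many genes of low counts no adjusted p and cannot call them: it gave one to 7 of these 9. In the alternatives *Sdc4* was called lower in 5 of 15, and *Cdh15* and *Megf10* were called higher in 1 each, without control library 3.

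Non-muscle myosin made up most of the heavy chain signal in both genotypes. The summed CPM of the non-muscle and smooth muscle chains reached 224, 174 and 260 in the controls against 219, 198 and 234 in the cKO-labelled libraries. The cKO-labelled values all lay within the range of the controls. The sarcomeric chains together had only 2, 0 and 1 counts in control, against 12, 44 and 6 in the cKO-labelled libraries, or 1.32 ± 1.41 and 26.3 ± 26.2 summed CPM (SD, n = 3 each). Every cKO-labelled library was above every control library, as for 5.99% of the 19247 single genes with any count, and cKO-labelled library 2 alone held 44 of the 62 counts; without it the mean of that group was 11.3 CPM.

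**Figure D1:**
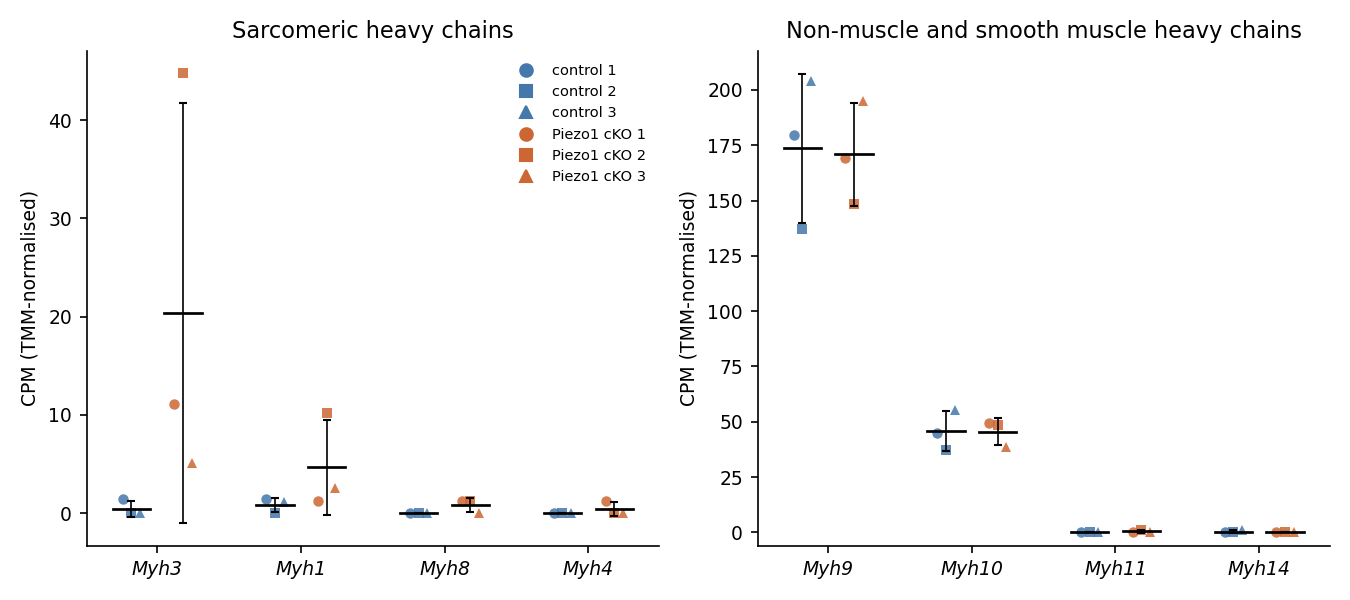
TMM-normalised CPM of the 4 sarcomeric (left) and 4 non-muscle or smooth muscle heavy chains (right) in the 3 control (blue) and 3 cKO-labelled libraries (orange), on separate linear scales. Each point is a library, the bar is the mean and the whisker the SD; *Myh3* reached 44.8 CPM in cKO-labelled library 2, whereas *Myh9* and *Myh10* overlapped between the groups.

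The count-based share shows the same libraries without any scaling. Sarcomeric chains took 2 of 162 heavy chain counts in control library 1 (1.23%, exact Clopper-Pearson 95% interval 0.150 to 4.39), 0 of 160 in control library 2 (upper limit 2.28%) and 1 of 227 in control library 3 (0.441%, 0.0112 to 2.43). In the cKO-labelled libraries they took 12 of 189 (6.35%, 3.32 to 10.8), 44 of 199 (22.1%, 16.5 to 28.5) and 6 of 187 (3.21%, 1.19 to 6.85). Only cKO-labelled library 2 had an interval that lay above those of all 3 control libraries, whereas the interval of cKO-labelled library 3 overlapped all 3 of them. These are bulk cultures, so a larger fraction of cells making sarcomeric myosin and more of its RNA per cell cannot be told apart.

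**Figure D2:**
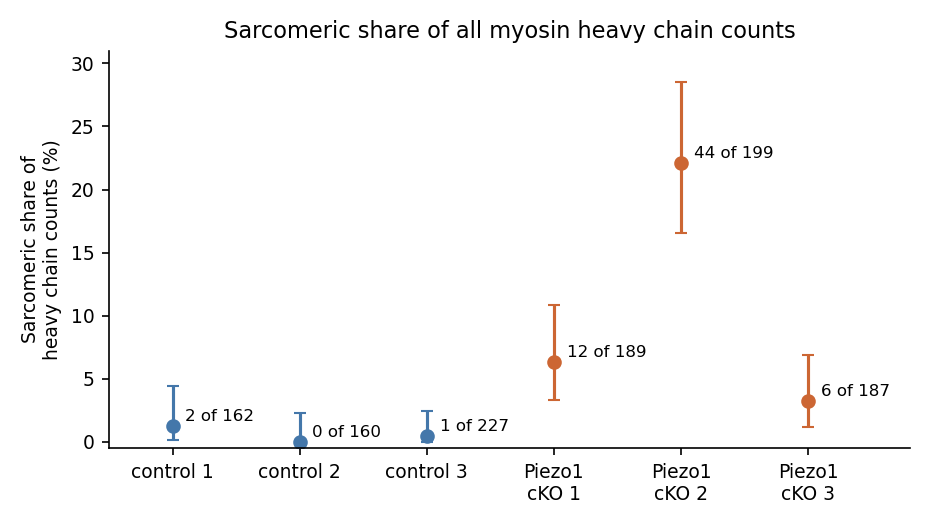
Share of all myosin heavy chain counts (in %) that came from the sarcomeric chains, by library, with exact 95% binomial intervals and the counts beside each point. The 3 control libraries lie between 0 and 1.23%, and the cKO-labelled libraries between 3.21% and 22.1%.

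*Myh3* encodes the embryonic heavy chain, among the first to appear when myoblasts differentiate. It lies on chromosome 11 of GRCm38 (67078300 to 67102291, plus strand), at the head of a cluster of skeletal muscle heavy chains that runs through *Myh2*, *Myh1* and *Myh4* to *Myh8* over 230335 bases. Its counts were 1, 0 and 0 in control and 9, 35 and 4 in the cKO-labelled libraries, which is 1.40, 0 and 0 against 11.1, 44.8 and 5.16 CPM. The cKO-labelled libraries were all above the control libraries, and control was at or below the floor. *Myh3* was the only 1 of the 8 chains whose groups did not overlap, beside the same 5.99% of genes with any count. The means were 0.467 ± 0.809 and 20.4 ± 21.4 CPM (SD, n = 3 each), and the two-sided exact permutation test gave p = 0.1, the smallest value it allows.

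With 9 and 4 counts in cKO-labelled libraries 1 and 3, *Myh3* did not pass edgeR's filter on low counts, and the outcome of its test depended on which other genes were fitted with it. Fitted without the filter, its log2 fold change was 5.20 (SE 0.75, adjusted p = 1.54e-08 by edgeR), in a fit that called 0.67% of 19247 genes. Kept beside the genes that pass the filter, a fit added after seeing the data, it was 5.21 (SE 1.51, 95% interval 1.64 to 8.78, adjusted p = 0.226). DESeq2, which called 0.674% of 4007 genes, gave 5.54 (SE 1.38, unadjusted p = 6.01e-05) and no adjusted p. Over all alternatives the adjusted p of *Myh3* ranged from 4.71e-10 to 0.318, and the estimate was above 0 in each, down to 2.49 with cyclic loess and 4.01 with limma-voom. Without cKO-labelled library 2 the estimate was 3.92 (adjusted p = 0.0798 without the filter) or 3.91 (adjusted p = 0.318 with the filtered genes). The pooled counts of 48 and 1 give a rate ratio of 53.4 (exact 95% interval 9.13 to 2151), a comparison of these libraries alone.

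The other sarcomeric chains stayed close to single molecules. *Myh1*, the fast IIx heavy chain (chromosome 11, 67200052 to 67224575, plus strand), had counts of 1, 0 and 1 in control and 1, 8 and 2 in the cKO-labelled libraries. The groups overlapped (0.852 ± 0.748 and 4.68 ± 4.85 CPM, SD, n = 3 each; two-sided exact permutation p = 0.2), and 8 of the 11 counts of the cKO-labelled libraries came from library 2. Kept beside the filtered genes its log2 fold change was 2.34 (SE 1.04, adjusted p = 0.330 by edgeR), and without that library it was 1.11 (adjusted p = 0.825, fitted without the filter). Pooled counts of 11 and 2 give a rate ratio of 6.12 (exact 95% interval 1.33 to 56.8). *Myh8*, the neonatal chain (67277124 to 67308634), had 0 counts in control and 1, 1 and 0 in the cKO-labelled libraries. *Myh4*, the fast IIb chain (67238029 to 67260446), had 1 count in all, in cKO-labelled library 1. Both were under the floor in every library, and no fold change is given.

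Within the cKO-labelled libraries *Myh3* supplied 75.0%, 79.5% and 66.7% of the sarcomeric counts. The chains of the cluster are similar in sequence: of the 50-base windows in the last 1000 bases of the transcript, where poly(A)-primed reads fall, 33.0% in *Myh1*, 20.4% in *Myh4* and 14.5% in *Myh8* were identical to a window of another of the 10 heavy chains, but only 5.57% in *Myh3*. The sequenced reads were longer than these windows, so the percentages are not shares of reads that fit several genes, which were not measured. How such reads were treated is not given in the sources used here, so the split of counts between *Myh1*, *Myh4* and *Myh8* is uncertain. Over the whole transcripts *Myh1* shared 1186 windows of 50 bases with *Myh2*, against 635 with *Myh4* and 583 with *Myh8*. Whether reads of *Myh2* lie in the *Myh1* counts was not tested. *Myh1* is also overlapped by the antisense gene *Myhas*, and since the strand setting is not given either, reads from the pair cannot be told apart.

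*Myh9*, the heavy chain of non-muscle myosin IIA, which powers cell migration and cortical contraction, lies on chromosome 15 (77760587 to 77842175, minus strand). Its counts were 128, 126 and 177 in control and 137, 116 and 151 in the cKO-labelled libraries, or 179, 137 and 204 against 169, 148 and 195 CPM. The groups overlapped fully, with the cKO-labelled values inside the control range. The means were 173.6 ± 33.7 and 170.8 ± 23.3 CPM (SD, n = 3 each), and the log2 fold change was -0.015 (SE 0.15, adjusted p = 0.983 by edgeR). Its 95% interval of -0.31 to 0.28 bounds a change to between 0.806-fold and 1.22-fold.

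*Myh10*, the heavy chain of non-muscle myosin IIB, which produces slower and more sustained tension, is on chromosome 11 (68691559 to 68816632, plus strand), 1382924 bases beyond *Myh8*. Counts of 32, 34 and 48 in control compared with 40, 38 and 30 in the cKO-labelled libraries. This corresponded to 44.9, 37.1 and 55.3 CPM and to 49.4, 48.6 and 38.7 CPM, again within the control range. The log2 fold change was 0.0036 (SE 0.23, 95% interval -0.46 to 0.47, adjusted p = 0.995 by edgeR), which bounds a change to between 0.726-fold and 1.38-fold.

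*Myh9* and *Myh10* were the 2 heavy chains that passed the filter, and 0 of them were called by edgeR or limma-voom, or by DESeq2 (which gave an adjusted p for *Myh9* only), or had an unadjusted p under 0.05 in edgeR, in a comparison in which edgeR called 0.784% of 8551 genes. The signs of both small estimates changed between scalings and left-out libraries, so neither has a direction.

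The balance between the A and B forms overlapped between the groups. *Myh9* supplied 80.0%, 78.8% and 78.3% of the non-muscle and smooth muscle counts in control and 77.4%, 74.8% and 83.4% in the cKO-labelled libraries. The ratio of *Myh9* to *Myh10* counts was 3.80 ± 0.175 in control and 3.84 ± 1.05 in the cKO-labelled libraries (SD, n = 3 each), with cKO-labelled library 3 the highest (5.03) and library 2 the lowest (3.05). Over all 6 libraries it was 3.82 per molecule and 3.98 per kb of transcript, the 2 transcripts being 7433 and 7759 bases long. *Myh14*, the chain of non-muscle myosin IIC (chromosome 7, 44605803 to 44670843, minus strand), had 1 count in control library 3 and none elsewhere. *Myh11*, the smooth muscle chain (chromosome 16, 14194535 to 14291372, minus strand), had 1 count in cKO-labelled library 2. Both were under the floor of 3 counts in every library.

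The light chains bind the neck of the heavy chain and set its activity. Of 5 non-muscle and smooth muscle light chains, all in the table, 3 were tested and 1 rose. *Myl9*, a regulatory light chain that is phosphorylated to activate contraction, had 81, 59 and 58 counts in control and 141, 127 and 83 in the cKO-labelled libraries, or 81.6 ± 27.7 and 147.9 ± 35.8 CPM (SD, n = 3 each). The groups overlapped, since control library 1 (113.6 CPM) was above cKO-labelled library 3 (107.1 CPM). Its log2 fold change was 0.89 (SE 0.20, adjusted p = 0.0229 by edgeR), and edgeR's 40 genes called higher are 0.468% of those tested. The call was lost with DESeq2 (adjusted p = 0.0863), with cyclic loess (0.149), without control library 3 (0.0687) and without cKO-labelled library 2 (0.369), and it was kept in 11 of 15 alternatives. *Myl12a*, the other main regulatory light chain, and *Myl6*, the essential light chain of non-muscle myosin, did not pass the test, with log2 fold changes of -0.072 (SE 0.15, adjusted p = 0.909) and -0.029 (SE 0.14, adjusted p = 0.962).

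Of 7 sarcomeric light chains, 5 were in the table and 2 were tested, with 0 called by edgeR or limma-voom, or by DESeq2 (which gave an adjusted p for *Mylpf* only), and both at an unadjusted p under 0.05 in edgeR (11.9% of all tested genes). Both passed the filter only through the cKO-labelled libraries: fewer than 3 control libraries reached its cut-off, so that genes chosen this way tend to lie higher in the cKO group. *Mylpf*, the fast skeletal regulatory light chain, had 18, 5 and 23 counts in control and 37, 191 and 61 in the cKO-labelled libraries. The groups did not overlap, with cKO-labelled library 2 the highest and control library 2 the lowest, and 7.87% of tested genes lay wholly above control in this way (log2 fold change 2.72, SE 1.00, adjusted p = 0.415 by edgeR). Without cKO-labelled library 2 the log2 fold change was 1.74 (adjusted p = 0.262). *Myl4*, the embryonic and atrial essential light chain, had 9, 10 and 14 counts in control and 15, 43 and 13 in the cKO-labelled libraries, or 16.1 CPM in the highest control and 16.8 CPM in the lowest cKO-labelled library. Its log2 fold change was 1.18 (SE 0.40, adjusted p = 0.176), without cKO-labelled library 2 it was 0.42 (adjusted p = 0.871), and without cKO-labelled library 1 it was called (1.44, adjusted p = 0.0104). *Myl1*, the fast essential light chain, named here after its values were seen, did not pass the filter with 2, 0 and 2 against 5, 55 and 14 counts. It was called in 1 of 5 alternatives with an adjusted p, edgeR without cKO-labelled library 1 (log2 fold change 4.66, adjusted p = 1.58e-05). By edgeR without the filter its adjusted p was 0.351, and without control library 1, 2 or 3 it was 0.559, 0.739 and 0.532. In each of these fits with a library left out, *Myl1* passed the filter only through the cKO-labelled libraries. It thus had to be higher there to be tested at all. The median log2 fold change was -0.029 over the 3 non-muscle light chains tested, beside 0.0021 over all genes tested. Over the 2 sarcomeric ones it was 1.95, which cannot be compared with these medians, since both passed the filter only through the cKO-labelled libraries.

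**Figure D3:**
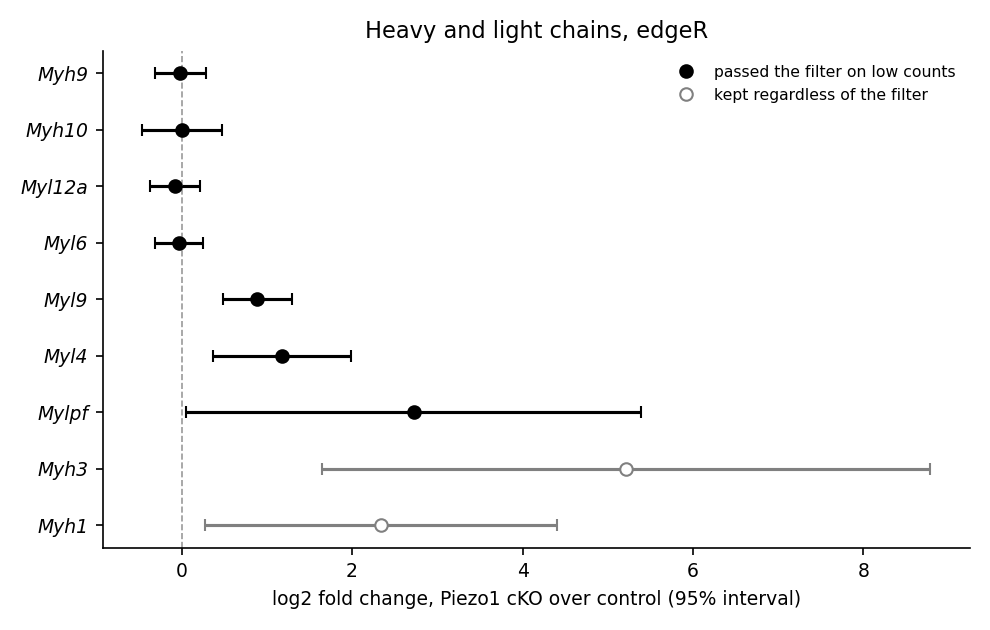
Log2 fold changes of heavy and light chains, cKO-labelled over control, from edgeR with 95% intervals; filled points passed the filter on low counts and open points were kept regardless of it. *Myh9*, *Myh10*, *Myl12a* and *Myl6* have intervals that include 0, *Myl9* (0.89) was the only called chain, and *Mylpf* (2.72), *Myh3* (5.21) and *Myh1* (2.34) have wide intervals.

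Around the thick filament, 18 of 22 listed genes for its scaffold and for the folding of myosin were in the table, and 5 were tested. In edgeR 4 of the 5 had an unadjusted p under 0.05, as did 11.9% of all tested genes. Of the 5 tested, 2 passed the filter only through the cKO-labelled libraries, *Smyd1* among them. *Myom3*, which did not pass it, was called without the filter (adjusted p = 0.00925 by edgeR). *Smyd1*, a muscle methyltransferase that takes part in myosin assembly, was called higher: its counts were 13, 1 and 10 in control and 20, 33 and 26 in the cKO-labelled libraries (log2 fold change 1.77, SE 0.43, adjusted p = 0.0430 by edgeR). Only 1 of its control libraries reached the cut-off of the filter, and genes chosen this way tend to lie higher in the cKO group. The edgeR calls of higher genes were 0.468% of those tested. The groups of *Smyd1* did not overlap (7.87% of tested genes lay wholly above control), but passage through the cKO-labelled libraries favours such a separation and a call of higher. The call was kept in 5 of 13 alternatives with an adjusted p, and without control library 2, without control library 3, without cKO-labelled library 2 and without cKO-labelled library 3 the adjusted p was 0.0835, 0.0921, 0.430 and 0.219. *Hsp90aa1*, a chaperone that folds myosin heads among many other proteins, had 901, 1320 and 1031 counts in control and 831, 584 and 699 in the cKO-labelled libraries, with a log2 fold change of -0.53 (SE 0.15), an adjusted p of 0.0567 by edgeR and of 0.00829 by DESeq2. It was called in 7 of 15 alternatives, with adjusted p-values up to 0.230, among those not called being edgeR without cKO-labelled library 2 (0.202) or 3 (0.225) and cyclic loess (log2 fold change -0.31, adjusted p = 0.166). Its CPM was lower in each cKO-labelled library than in any control library, which held for 8.56% of tested genes, and DESeq2 called 0.374% of its 4007 genes lower.

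Partners of the fast and slow fibre types were counted beside the heavy chains. Of 9 fast fibre genes, 7 were in the table, 4 were tested and 2 were called higher (0.468% of all tested genes were called higher). But 2 of the 4, *Tnni2* among them, passed the filter only through the cKO-labelled libraries. The median log2 fold change of 1.68 therefore cannot be compared with that of all genes tested. *Actn3*, the Z-disc actinin of fast fibres, had 42, 44 and 70 counts in control and 106, 125 and 107 in the cKO-labelled libraries (log2 fold change 1.20, SE 0.18, adjusted p = 1.02e-05 by edgeR and 0.000824 by DESeq2). It was called in all 15 alternatives. *Tnni2*, the fast troponin I, had 6, 2 and 4 counts in control and 16, 24 and 12 in the cKO-labelled libraries (log2 fold change 2.16, SE 0.45, adjusted p = 0.00459 by edgeR). None of its control libraries reached the cut-off of the filter, so it had to be higher in the cKO group to be tested at all, and the call was lost without cKO-labelled library 2 (adjusted p = 0.277). *Tnnt3*, the fast troponin T, was called without the filter (log2 fold change 1.18, adjusted p = 3.37e-07 by edgeR) and without control library 2 (0.83, adjusted p = 0.00194), in 2 of 15 alternatives. The groups of *Actn3* were apart, as were those of 7.87% of tested genes in this direction. Those of *Tnni2* were apart too, but with no control library at the cut-off the filter required this, so it is no result.

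Of 8 slow fibre genes, 7 were in the table, 5 were tested and 0 were called by edgeR or limma-voom, or by DESeq2 among the 3 to which it gave an adjusted p, with 3 at an unadjusted p under 0.05 in edgeR (11.9% of all tested genes). The 3 troponins passed the filter only through the cKO-labelled libraries, so the median of this list cannot be compared with that of all genes tested. The median log2 fold change was 1.96, with the 3 troponins at 1.96 (*Tnnt1*, adjusted p = 0.378), 2.44 (*Tnni1*, adjusted p = 0.434) and 2.72 (*Tnnc1*, adjusted p = 0.273), whereas *Tpm3* and *Atp2a2*, which many cell types use, were at -0.29 (adjusted p = 0.392) and -0.15 (adjusted p = 0.708). *Tnnc1*, the slow and cardiac troponin C, named after its values were seen, had 9, 6 and 11 counts in control and 25, 98 and 41 in the cKO-labelled libraries. DESeq2 gave it an unadjusted p of 5.31e-08 and no adjusted p. None of its control libraries reached the cut-off of the filter, so, like *Tnni2*, it had to be higher in the cKO group to be tested. *Tnnc1* was called in 5 of 13 alternatives with an adjusted p, among them edgeR without the filter (adjusted p = 8.00e-10), cyclic loess (0.0452), and edgeR without cKO-labelled library 1 (9.38e-14) or without cKO-labelled library 2 (log2 fold change 1.99, adjusted p = 0.0115). All of these calls except the one without the filter carry that selection. The slow heavy chain itself, *Myh7*, was not analysed here, and its regulatory light chain *Myl2* was at 0 in all libraries.

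Other genes of muscle differentiation were, like *Myh3*, at their highest in cKO-labelled library 2. The summed CPM of the 9 of 12 listed markers of differentiating muscle that were in the table was 481, 180 and 393 in control and 600, 1599 and 840 in the cKO-labelled libraries, with *Acta1*, skeletal actin, the most abundant and none at 0. Of 7 tested, 3 of them through the cKO-labelled libraries only, 0 were called by edgeR, 4 had an unadjusted p under 0.05 in edgeR (11.9% of all tested genes did), and DESeq2 called *Acta1* (46, 57 and 80 counts against 133, 353 and 205; log2 fold change 2.01, adjusted p = 0.241 by edgeR and 0.00485 by DESeq2, which called 0.299% of its genes higher). Over 15 alternatives *Acta1* was called in 4, with adjusted p-values from 2.62e-15 (edgeR without cKO-labelled library 1) to 0.616, and without cKO-labelled library 2 it was called with a log2 fold change of 1.55 (adjusted p = 0.00110). Other markers of the list were also called by edgeR in some alternatives: *Tnnt3* as above, *Mymk* (1.96, adjusted p = 0.00419) and *Mymx* (2.86, adjusted p = 0.0332) without the filter, *Mymk* without control library 2 (1.53, adjusted p = 6.60e-05) and *Neb* without cKO-labelled library 1 (0.82, adjusted p = 0.0169). *Myog*, the transcription factor that drives terminal differentiation, had 40, 3 and 45 counts in control and 63, 203 and 92 in the cKO-labelled libraries (log2 fold change 2.09, SE 0.89, adjusted p = 0.468). cKO-labelled library 2 was the highest and control library 2 the lowest for *Myog* and *Mylpf* and for the marker sum, and control library 2 was also without any sarcomeric heavy chain. The part of differentiating cells in the *Myh3* counts was not tested.

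**Figure D4:**
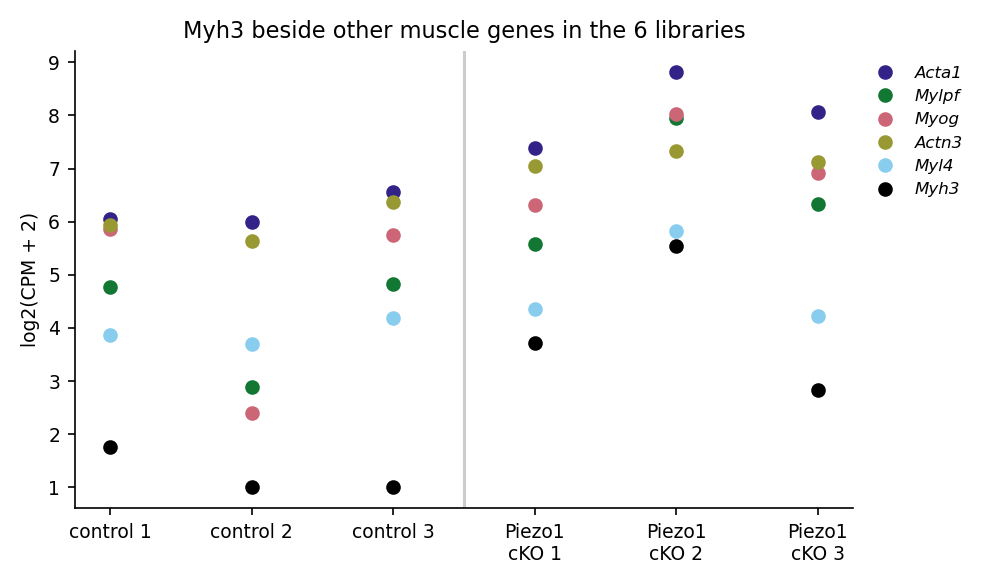
Levels of *Myh3* and of 5 other muscle genes as log2(CPM + 2) in the 6 libraries, each point a gene in a library. All 6 genes are highest in cKO-labelled library 2, and *Myh3* is at 0 CPM, drawn at 1, in control libraries 2 and 3.

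Markers of other cell types, which the sort was meant to leave out, were measured beside the heavy chains. Of 12 smooth muscle and pericyte markers 10 were in the table and 3 were tested, with 0 called by edgeR or limma-voom, or by DESeq2 among the 2 to which it gave an adjusted p. In edgeR 1 was at an unadjusted p under 0.05 (11.9% of all tested genes). The summed CPM of the list was 318, 206 and 573 in control and 510, 622 and 507 in the cKO-labelled libraries. *Acta2*, which myoblasts also express, made up most of it. The 3 tested were *Acta2*, *Smtn* and *Cspg4*, which reached the cut-off of the filter in every library. Their median log2 fold change was 0.74, with 2 estimates above 0 and 1 below. The defining markers *Cnn1* and *Lmod1* had 4 counts and 1 count in all, beside the 1 count of *Myh11*. Of 11 fibroblast markers 10 were in the table and 4 were tested, the summed CPM was 303, 420 and 520 against 403, 399 and 423, *Col3a1* was the most abundant and *Pi16* was at 0. All 4 tested had an unadjusted p under 0.05 in edgeR, as did 11.9% of all tested genes, with 2 estimates above 0 (*Col1a2*, 0.85, adjusted p = 0.125, and *Col3a1*, 0.41, adjusted p = 0.265) and 2 below; *Col1a2* was called in 5 of 15 alternatives and *Col3a1* in 1. One of them fell by edgeR: *Dcn*, a matrix proteoglycan, had 18, 23 and 37 counts in control and 8, 5 and 3 in the cKO-labelled libraries (log2 fold change -2.17, SE 0.38, adjusted p = 0.000387 by edgeR), against 0.316% of genes called lower. It passed the filter only through the controls, since none of its cKO-labelled libraries reached the cut-off, so it had to be lower in the cKO group to be tested at all. *Cd34*, a surface protein that quiescent MuSCs also carry, was called lower by DESeq2 (53, 172 and 91 counts against 39, 23 and 35; log2 fold change -1.59, adjusted p = 0.000824 by DESeq2 and 0.181 by edgeR), and it was called in 4 of 15 alternatives. *Ly6a*, which encodes the Sca1 used to deplete cells in the sort, had 2, 2 and 3 against 5, 8 and 9 counts. Endothelial, haematopoietic and Schwann cell markers had summed CPM of at most 21.9, 28.3 and 15.4 in any library, led by *Tek*, *Cd68* and *Mbp*, with *Flt1* at 0. The part of these cells in the heavy chain values was not tested.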

How the data were processed

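The authors made cDNA from 500 pg of RNA per library with 12 PCR cycles, mapped the reads to GRCm38 with STAR (2.7.9a), annotated them with featureCounts (2.0.1) and counted UMIs with UMI-tools (1.1.1), per the paper and the submitters' processing notes. The deposited values are these raw counts per gene, not normalised, with 1 column per library. Settings for strand and for reads mapping to several places are not given in the sources used here.

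Counts were fitted in R 4.3.3 with edgeR 4.0.16 (TMM, robust quasi-likelihood test, p-values adjusted by Benjamini-Hochberg with a threshold of 0.05) on 8551 genes kept by its filter with a minimum count of 10. Alternatives were DESeq2 1.42.0, limma-voom (limma 3.58.1), cyclic loess, DESeq2 size factors, total counts, no filter (19247 genes), 10 counts in every library, thinning, the replicate number as a block and each library left out. A fit that kept the heavy chains regardless of the filter was chosen after seeing the data. Calculations were tested on simulated counts. Exact intervals used scipy 1.17.1.

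The heavy chains and the gene lists were chosen with earlier results of these data known. Named were *Piezo1*, the heavy chains, all tested light chains, in other lists the genes called by edgeR or DESeq2 or otherwise up to 4 of the highest CPM, and as likeness the 5 genes correlated best with *Myh3* and with *Myh9*. Genes outside this rule were named after their values were seen: *Myl1*, *Tnnc1*, *Tnnt3*, *Neb*, *Mymx*, *Myom3*, *Cdh15*, *Megf10*, *Col1a2*, *Ly6a*, *Myl2*, *Myo19* and, as the most abundant, defining or undetected markers of other cell types, *Cnn1*, *Lmod1*, *Pi16* and *Flt1*.

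Coordinates and transcripts are from GENCODE M21 (GRCm38), and promoters from RefSeq (GRCm38.p6), where all 10 symbols matched.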

Additional observations from a re-analysis of the deposited data

How the results depend on the processing

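Depth limits what can be said of the sarcomeric chains, since 1 count stands for more than 1 CPM in each library and 6 of the 8 heavy chains did not pass the filter. The estimates of *Myh9* and *Myh10* were near 0 and changed sign: *Myh9* was 0.060 with total counts only and 0.033 with cyclic loess, and ranged from -0.16 to 0.12 with each library left out; *Myh10* was -0.012 with DESeq2, -0.038 with cyclic loess and -0.0029 without the filter, and ranged from -0.13 to 0.17 with each library left out. Neither was called in any alternative run. *Myh3* was 5.20 without the filter and from 3.92 (without cKO-labelled library 2, adjusted p = 0.0798) to 7.09 with each library left out; the last, without control library 1, leaves *Myh3* at 0 in the controls, so that it depends on the prior count and is no bound. It was 2.49 with cyclic loess and 4.01 with limma-voom. Kept beside the filtered genes it was 5.21 (adjusted p = 0.226), and 3.91 (adjusted p = 0.318) without cKO-labelled library 2. Apart from cyclic loess and limma-voom, these *Myh3* values were by edgeR. *Myh1* was called in none.

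edgeR called 67 genes (40 higher, 27 lower), DESeq2 27 (12 and 15), cyclic loess 32 (17 and 15), edgeR without the filter 129 (82 and 47) and edgeR with total counts only 67 (49 and 18). With a library left out the calls ranged from 6 (4 and 2, without cKO-labelled library 2) to 174 (101 and 73, without cKO-labelled library 1). The replicate numbers of the labels are not known to link mice: same-numbered libraries had correlations of -0.14, -0.20 and 0.012 of their deviations from the group means. With the replicate block edgeR called 46 genes (26 and 20), 36 of them among the 67, and *Myh9* was -0.010, *Myh10* 0.0059 and *Myh3* 5.22 (without the filter). Among the genes named, the block added a call of *Acta1* (adjusted p = 0.00418), of *Tnnc1* (0.00463) and of *Col1a2* (0.0380) and lost that of *Smyd1* (0.283). The causes were not tested.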

Other observations

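The unconventional myosins, single-headed or cargo-carrying motors that share the myosin head but form no filaments, were also counted. Of 24 listed, 19 were in the table and 10 were tested by edgeR, and 0 were called by edgeR or limma-voom, or by DESeq2 among the 5 to which it gave an adjusted p. In edgeR 1 of the 10 was at an unadjusted p under 0.05 (11.9% of all tested genes), and the median log2 fold change was 0.11. Of the 10, 3 passed the filter only through the cKO-labelled libraries, and genes chosen this way tend to lie higher in the cKO group. *Myo1c*, a membrane-tethering motor, was the most abundant with 104, 156 and 160 counts in control and 164, 135 and 124 in the cKO-labelled libraries (log2 fold change 0.099, adjusted p = 0.859). *Myo10*, which moves to the tips of filopodia, had a log2 fold change of 0.12 (adjusted p = 0.843) and *Myo1e* of -0.042 (adjusted p = 0.961). *Myo5a*, a vesicle transporter, had 89, 95 and 94 counts in control and 70, 69 and 63 in the cKO-labelled libraries; its groups did not overlap (8.56% of tested genes lay wholly below control), and the log2 fold change was -0.38 (SE 0.17, adjusted p = 0.329). *Myo19*, a mitochondrial motor that did not pass the filter, had 5, 6 and 6 counts in control and 2 in each cKO-labelled library.

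The regulators of non-muscle myosin II were all in the table, 20 of 26 were tested, and 0 were called by edgeR or limma-voom, or by DESeq2 among the 13 to which it gave an adjusted p, or had an unadjusted p under 0.05 in edgeR; their median log2 fold change was -0.024. The 4 of highest CPM were *Ppp1r14b*, an inhibitor of myosin phosphatase (log2 fold change -0.29, SE 0.15, adjusted p = 0.434), *S100a4*, which binds the *Myh9* tail (0.11, SE 0.14, adjusted p = 0.833), *Ppp1cb*, the catalytic subunit of the phosphatase (0.017, SE 0.14, adjusted p = 0.977), and *Racgap1*, which takes part in cytokinesis (0.0019, SE 0.15, adjusted p = 0.995). Among 10 myogenic regulators, all in the table, 7 were tested and 0 were called by edgeR or limma-voom, or by DESeq2 among the 4 to which it gave an adjusted p, with 2 at an unadjusted p under 0.05 in edgeR (11.9% of all tested genes). *Myog* and *Mymk* passed the filter only through the cKO-labelled libraries. *Myod1* was at -0.155 (adjusted p = 0.743), *Mef2a* at 0.45 (adjusted p = 0.187) and *Mymk*, the membrane fusion protein myomaker, at 1.97 (adjusted p = 0.370), all as log2 fold changes by edgeR. Without the filter edgeR called *Mymk* (1.96, adjusted p = 0.00419) and *Mymx* (2.86, adjusted p = 0.0332), and without control library 2 it called *Mymk* (1.53, adjusted p = 6.60e-05).

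As a description over 6 libraries, with no p, the log2(CPM + 2) of *Myh3* was correlated with the log2 CPM (prior count 2) of the tested genes. The most alike were *Ptprk* (Pearson's r = 0.985), *Taz* (0.984), *Fndc3c1* (0.983), *Pecr* (0.978) and *Ctns* (0.975), of which none was called, while *Acta1* and *Mylpf* stood at 0.896 and 0.890. For *Myh9*, itself on the log2 CPM scale (prior count 2), the most alike were *Grpel2* (0.987), *Bola2* (0.965), *Ap2m1* (0.963), *Tceal8* (0.960) and *Ltc4s* (0.959), and *Myh10* stood at 0.402. The points share their libraries and depth.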
